A study of Mus musculus with 6 samples.

Results

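The genes described here are the zinc metalloproteases that cut the extracellular matrix and shed proteins from cell surfaces, with their inhibitors. They were chosen from the count table by a rule on names, with earlier results of these data known. It took every gene symbol that begins with Mmp, Adam or Adamts and a number, with Adamtsl, or that is Timp1 to Timp4. The rule found 81 of the 22477 genes in the table: 23 matrix metalloproteinases (MMPs), 4 tissue inhibitors of metalloproteinases (TIMPs), 30 ADAMs, 19 ADAMTS genes and 5 ADAMTS-like genes.

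MMPs are secreted or membrane-anchored enzymes, made as inactive precursors, that cleave collagens, elastin and other matrix proteins. TIMPs block them by binding the active site. ADAMs are transmembrane proteins, some of which release the outer parts of growth factors, cytokines and Notch receptors from the cell surface, while others have lost the catalytic site and act in adhesion. ADAMTS proteins are secreted proteases with thrombospondin repeats that trim proteoglycans, procollagens and von Willebrand factor, and the ADAMTS-like proteins share the repeats but have no protease domain. In the lung these genes are known for the turnover of elastic fibers and basement membrane.

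RNA came from 4 lung tumors and 2 samples labelled normal lung, each from a different mouse of the Rb1/Trp53/MycT58A (RPM) genotype, in which Cre recombinase deletes floxed Rb1 and Trp53 and turns on the stabilized MycT58A allele. Both groups list the same treatment, Ad5CGRP-Cre, an adenovirus that expresses Cre from the CGRP promoter of neuroendocrine cells and that was instilled into the trachea, at 8 weeks of age in the cohort that the protocols describe. The libraries are called normal 1 and 2 and tumors 3 to 6, and the labels name no age at sampling or sex for them. The protocols describe arms with the histone deacetylase inhibitor entinostat and with anti-PD-1 antibody, but no library is labelled with an arm, so the comparison here is tumor against normal lung. Nothing states how much normal tissue the tumor pieces held.

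Total counts ran from 54735438 to 99122494 per library. Of 10 listed markers of neuroendocrine tumor cells all 10 were higher in tumors, with summed levels of 19.6 and 25.0 CPM (counts scaled to library size) in normal lung and 833 to 1462 in tumors. All 10 markers of endothelium and all 10 of alveolar epithelium were lower, from 3869 and 4243 to between 62.1 and 99.4 CPM and from 19290 and 20840 to between 120 and 704 CPM, and none of either list was at 0 in every tumor. Myc had 7.90 and 18.2 CPM in normal lung against 70.2, 169, 84.1 and 175 CPM in tumors 3 to 6 (log2 fold change 3.25 ± 0.59, adjusted p = 0.00318; errors of log2 fold changes are standard errors, and p-values are edgeR's quasi-likelihood test with Benjamini-Hochberg adjustment unless another tool is named). Trp53 was 1.92-fold lower (adjusted p = 0.019) and Rb1 did not pass the test (adjusted p = 0.345), in counts that include exons outside the floxed parts. In counts of whole tissue, fewer cells of a type and less RNA per cell cannot be told apart.

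Most of the tested proteases and inhibitors were lower in tumors, and a smaller group was higher. Of the 81 genes, 66 had enough counts to be tested. With edgeR's quasi-likelihood test at an adjusted p under 0.05, 36 of the 66 (54.5%) were lower in tumors and 11 (16.7%) higher, while 19 did not pass. Among all 18027 genes tested the shares were 32.6% lower and 31.3% higher, or 63.9% in either direction. The median log2 fold change was -1.42 over the 66 genes and 0.02 over all genes tested. In 41 of the 66 every tumor lay below both normal libraries and in 16 every tumor lay above, against 39.8% and 37.4% of all genes. Of the 15 genes without a test, all but Mmp10 had at most 12 counts in any library. The number that rose was 6 without normal 1 and 7 without normal 2.

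**Figure D1:**
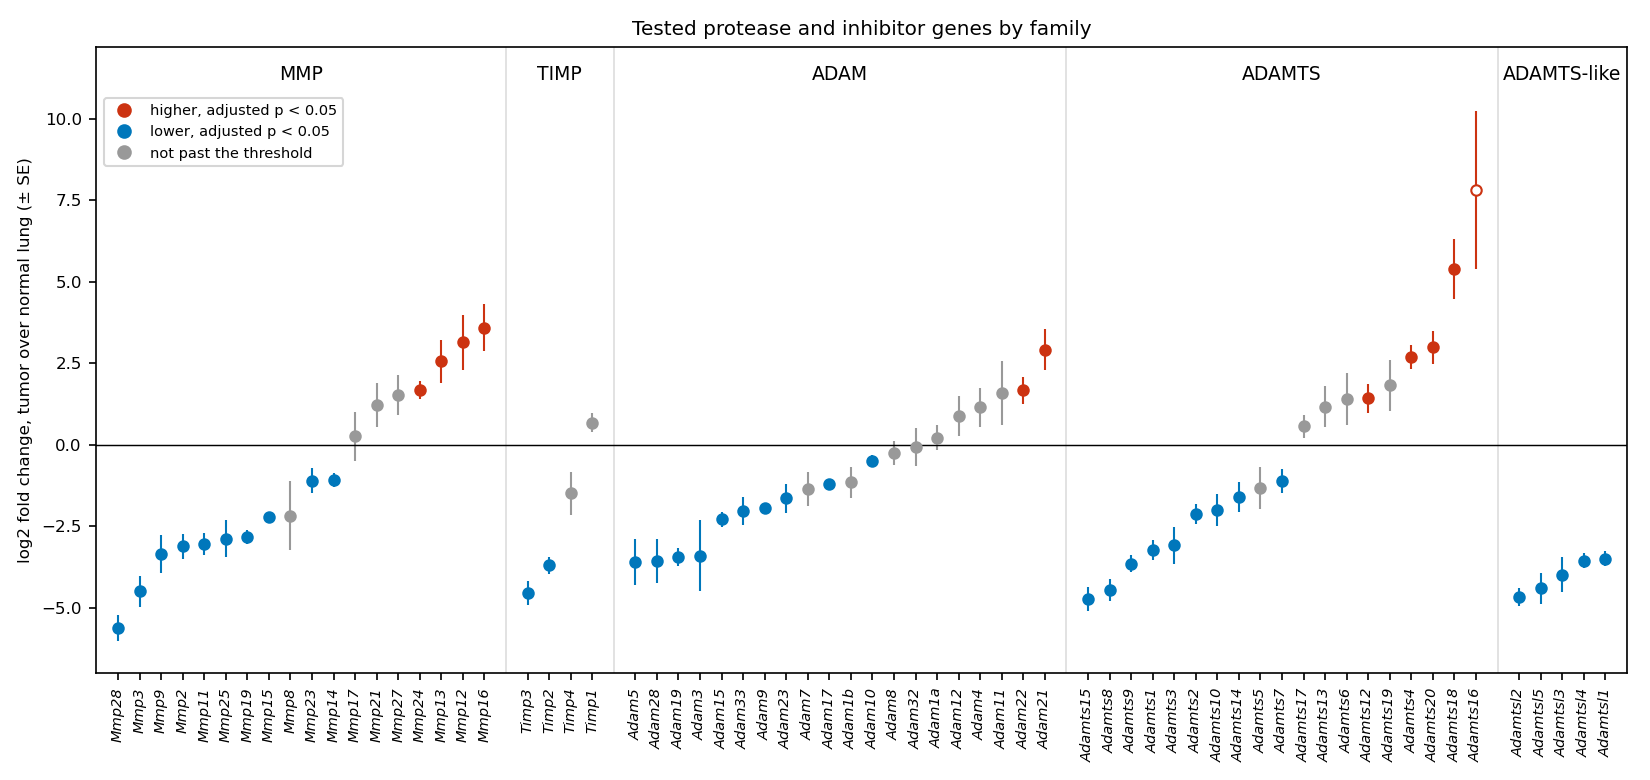
Log2 fold change of each tested gene, tumor over normal lung, with bars for the standard error, ordered within each family and colored by the edgeR call. All 5 ADAMTS-like genes lie between -4.68 and -3.49, whereas the MMP and ADAMTS families spread to both sides of 0; the open point, Adamts16, had 0 counts in both normal libraries, so its plotted value is no measured size.

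The inhibitors that were abundant in normal lung were low in the tumors. Timp3, the TIMP that binds to matrix and also inhibits ADAM17 and several ADAMTS enzymes, had 1388 and 1320 CPM in normal 1 and 2 and 57.5, 76.3, 68.8 and 29.1 CPM in tumors 3 to 6. All tumors lay far below both normal libraries, and Timp3 was 23.4-fold lower (log2 fold change -4.55 ± 0.37, adjusted p = 0.000137). Timp2, which takes part in the activation of Mmp2 by Mmp14, stood at 430 and 394 CPM in normal 1 and 2 and 31.8, 40.3, 34.8 and 20.6 CPM in tumors 3 to 6 and was 12.9-fold lower (log2 fold change -3.69 ± 0.26, adjusted p = 8.52e-05). For both genes tumor 6 was the lowest library and tumor 4 the highest of the tumors.

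For Timp1, an inducible inhibitor, no decrease was found. Its level was 4.45 and 4.15 CPM in normal 1 and 2 and 7.36, 7.32, 5.08 and 7.84 CPM in tumors 3 to 6, so that every tumor lay above both normal libraries, but the change did not pass (log2 fold change 0.68 ± 0.30, adjusted p = 0.0854). With DESeq2 it did, at 0.74 and adjusted p = 0.0203. Timp4 ranged from 0.234 to 1.047 CPM in tumors against 1.20 and 2.05 in normal lung and did not pass either (log2 fold change -1.48 ± 0.66, adjusted p = 0.0876), although it was called lower with limma voom (-1.65, adjusted p = 0.0418) and without tumor 6 (-1.84, adjusted p = 0.0407). Timp1, Timp3 and Timp4 lie inside Syn1, Syn3 and Syn2, genes of synaptic vesicle proteins on the other strand (GENCODE, GRCm38). Syn1 had 1.77 and 1.53 CPM in normal lung against 11.9, 4.77, 15.6 and 12.3 CPM in tumors 3 to 6 (log2 fold change 2.75 ± 0.54, adjusted p = 0.00425). Exons overlap by 90 bases for Timp4 and Syn2 and not at all in the other pairs. Without a known strand setting, reads of both partners cannot be told apart where they overlap, and the part of synapsin reads in the Timp counts was not tested.

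Levels of different genes were compared per length, as CPM per kb of exon. The 4 TIMPs together summed to 286 and 268 CPM per kb in normal lung and to 23.6, 28.0, 23.2 and 17.9 in tumors 3 to 6. The 23 MMPs summed to 121 and 120 CPM per kb in normal lung and to 44.9, 56.2, 52.1 and 45.2 in the tumors. The ratio of the TIMP sum to the MMP sum, which needs no scaling between libraries, was 2.37 and 2.23 in normal lung and 0.527, 0.498, 0.445 and 0.395 in tumors 3 to 6. The groups did not overlap in any of these 3 measures, which are given without a test.

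The make-up of both sums differed as well. Timp3 held 59.6% and 60.4% of the TIMP sum in normal lung and 20.0% to 36.5% in tumors, while Timp1 held 1.75% and 1.74% in normal lung and 24.7% to 49.4% in tumors. Among MMPs, Mmp2 was the largest in both normal libraries, with 25.9% and 24.2% of the MMP sum. Mmp12 was the largest in tumors 3 and 4, at 23.4% and 35.5%, and Mmp24 in tumors 5 and 6, at 22.3% and 25.6%.

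**Figure D2:**
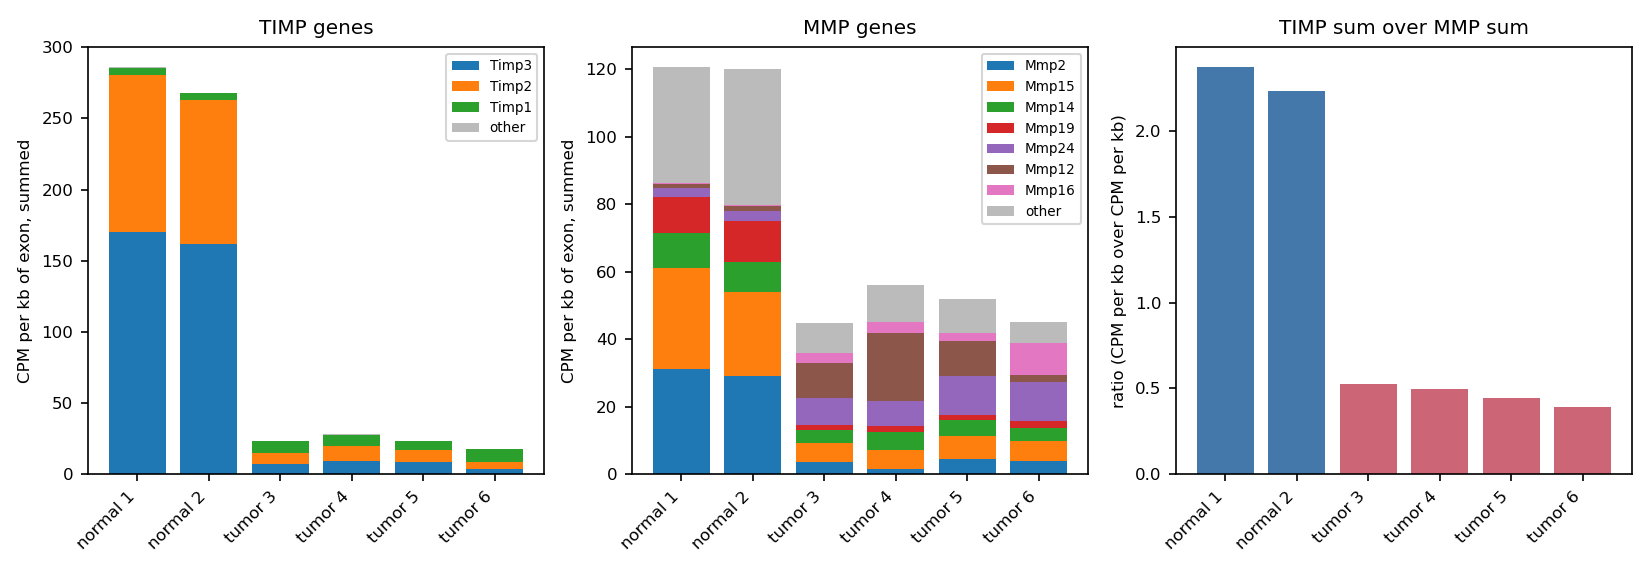
Summed CPM per kb of exon of the TIMP genes (left) and MMP genes (middle) in each library, split by gene, and the ratio of the sums (right). Both sums are lower in the 4 tumors than in the 2 normal libraries, and the ratio goes from 2.37 and 2.23 to between 0.395 and 0.527.

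Of the 18 MMPs tested, 10 (55.6%) were lower in tumors, 4 (22.2%) higher and 4 not past the threshold. Among all genes tested 32.6% were lower and 31.3% higher. The median log2 fold change of the MMPs was -1.64. Both gelatinases fell. Mmp2 (gelatinase A), which cleaves denatured collagen and collagen IV, had 98.9 and 92.1 CPM in normal 1 and 2 and 11.9, 5.12, 14.3 and 12.7 CPM in tumors 3 to 6, 8.67-fold lower (log2 fold change -3.12 ± 0.37, adjusted p = 0.000559). All tumors were below both normal libraries, and tumor 4 was the lowest. Mmp9 (gelatinase B), made by neutrophils and macrophages among others, had 4.79 and 8.11 CPM in normal 1 and 2 and 0.685, 0.314, 1.15 and 0.389 CPM in tumors 3 to 6 and was 10.1-fold lower (log2 fold change -3.34 ± 0.58, adjusted p = 0.00262).

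Other secreted MMPs fell as well. Mmp28 (epilysin), which epithelia express, had 11.1 and 16.4 CPM in normal 1 and 2 and 0.253, 0.294, 0.391 and 0.179 CPM in tumors 3 to 6. Its 48.8-fold difference (log2 fold change -5.61 ± 0.41, adjusted p = 9.03e-05) was the largest decrease among all 66 genes tested. Mmp3 (stromelysin 1), a product of stromal cells, had 16.7 and 21.5 CPM in normal 1 and 2 and 0.685, 0.510, 0.677 and 1.53 CPM in tumors 3 to 6, 22.4-fold lower (log2 fold change -4.49 ± 0.48, adjusted p = 0.000359). Mmp11 (stromelysin 3) and Mmp19 were 8.28-fold and 7.12-fold lower, with adjusted p = 0.000392 and 0.000115. The exons of Mmp28, Mmp11 and Mmp19 overlap those of 1700020L24Rik, Chchd10 and Tmem198b on the other strand by 466, 155 and 789 bases (GRCm38), and these neighbors were also lower in tumors, at log2 fold changes of -5.19, -1.65 and -1.83. Their part in the counts was not tested.

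Fibroblast and neutrophil markers are given beside these genes. Of 10 fibroblast markers 7 (70.0%) were lower and none higher, against 32.6% and 31.3% of all genes tested. Their summed levels were 2122 and 2127 CPM in normal lung and 321 to 1074 in tumors. Of 8 neutrophil markers tested 3 (37.5%) were lower and none higher, a share near the 32.6% of all genes, with a median of -0.07 and sums of 45.8 and 53.4 against 9.03 to 59.0 CPM. No marker of either list was at 0 in all tumors, and the part of these cells in the MMP values was not tested.

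The list of membrane-anchored MMPs held Mmp14, Mmp15, Mmp16, Mmp17, Mmp24 and Mmp25. Of these 6, 3 (50.0%) fell, 2 (33.3%) rose and 1 did not pass, against 32.6% lower and 31.3% higher among all genes tested. Mmp14 (MT1-MMP), the activator of Mmp2, had 47.0 and 40.4 CPM in normal 1 and 2 and 17.2, 24.9, 22.3 and 18.3 CPM in tumors 3 to 6 (log2 fold change -1.08 ± 0.20, adjusted p = 0.00375), and Mmp15 (MT2-MMP) had 154 and 128 CPM in normal 1 and 2 and 28.9, 28.4, 34.9 and 29.9 CPM in tumors 3 to 6 (log2 fold change -2.21 ± 0.15, adjusted p = 7.73e-05). Both fell, by 2.11-fold and 4.61-fold, with the tumors within a factor of 1.44 and 1.23 of each other. Mmp25, which is held by a lipid anchor and known from leukocytes, was at most 0.143 CPM in tumors and fell by 2.87 on the log2 scale, but not past the threshold without normal 2 (-2.28, adjusted p = 0.0658).

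Mmp24 and Mmp16 rose. Mmp24 (MT5-MMP), an enzyme known from the nervous system, had 12.6 and 13.3 CPM in normal 1 and 2 and 34.1, 32.1, 50.0 and 49.9 CPM in tumors 3 to 6, 3.21-fold higher (log2 fold change 1.68 ± 0.26, adjusted p = 0.00174). Its exons overlap those of BC029722 by 637 bases on the other strand, and that neighbor was lower in tumors (-0.54). Mmp16 (MT3-MMP), also abundant in brain, had 1.87 and 2.44 CPM in normal 1 and 2 and 17.0, 18.6, 13.6 and 55.0 CPM in tumors 3 to 6, 12.1-fold higher (log2 fold change 3.60 ± 0.72, adjusted p = 0.00484). Tumor 6 stood apart from the others in Mmp16, with 4.04 times the level of the lowest tumor. Mmp17, a lipid-anchored member, had 2.46 and 2.51 CPM in normal 1 and 2 and 2.03, 1.75, 6.97 and 1.15 CPM in tumors 3 to 6, so that tumor 5 alone exceeded normal lung, and it did not pass (adjusted p = 0.779). Mmp23, which was not on the membrane-anchored list, fell by 1.10 on the log2 scale (adjusted p = 0.0391). That call was lost with upper quartile scaling (-0.98), without normal 1 (-1.29) or normal 2 (-0.92) and without tumor 3 (adjusted p = 0.0805), tumor 5 (-0.95) or tumor 6 (-0.95).

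**Figure D3:**
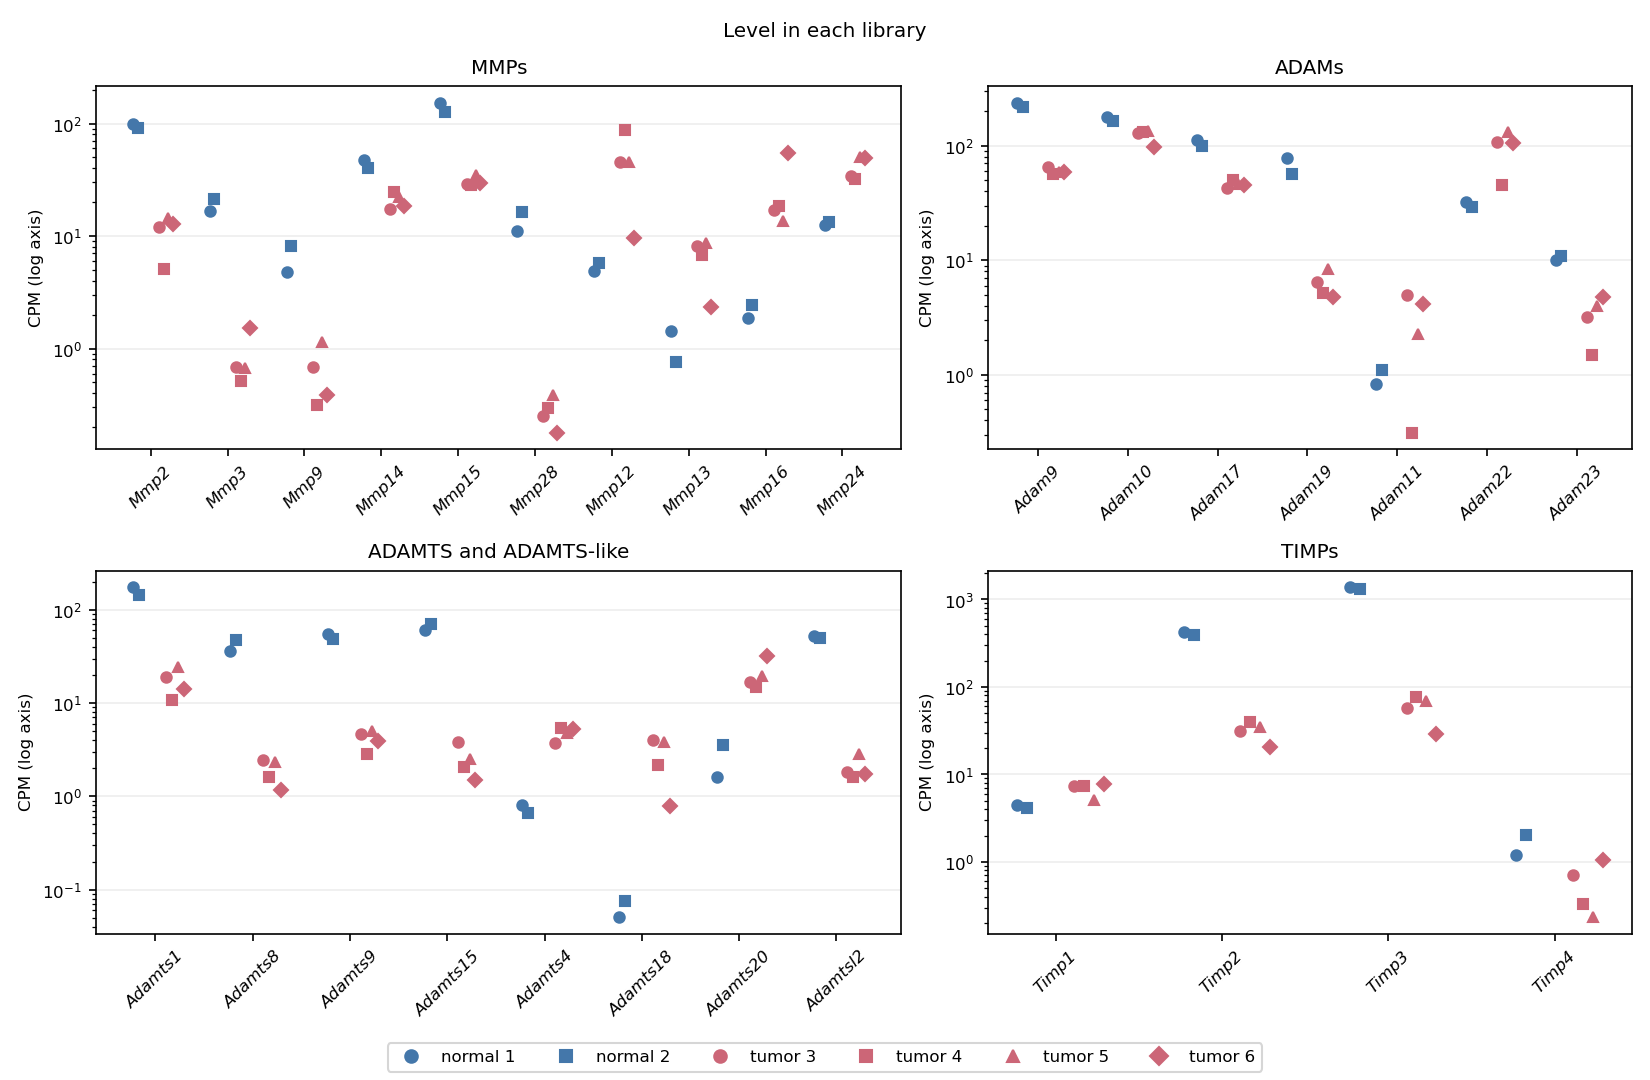
CPM in each library on a log axis for selected MMPs, ADAMs, ADAMTS genes and TIMPs, with normal lung in blue and tumors in red and 1 symbol per library. Mmp12, Mmp13, Mmp16, Mmp24, Adam22, Adamts4, Adamts18 and Adamts20 have every tumor above both normal libraries, while Adam11 has tumor 4 below them and the other tumors above.

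A run of 10 MMP genes lies on mouse chromosome 9, in the order Mmp13, Mmp12, Mmp1b, Mmp3, Mmp1a, Mmp10, Mmp8, Mmp27, Mmp20 and Mmp7 (RefSeq, GRCm38). Of the 5 that were tested, 2 rose, 1 fell and 2 did not pass. The site for AP-1, the Fos and Jun dimer known to act on several MMP promoters, was searched as TGANTCA, which reads the same on both strands, in the 250 bases before the RefSeq start site. With N as any base, a match was present in 8 of these 10 genes, all but Mmp8 and Mmp27. It was in 12 of the 51 protease and inhibitor genes that the promoter table holds (23.5%), 8 of them from this cluster. Among all 27025 genes there the share was 7.82%. In Mmp20, Adam20 and Adam25 the match read TGAATCA. Among the 51, a match was found in 2 of 8 genes that rose and 2 of 23 that fell. The stretches around it are shown for 7 of the 8, since neighbors that rose, that fell and that were close to 0 in every library all carry the motif. They are from RefSeq GRCm38.p6, 5′ to 3′ on the gene's strand, with the match in capitals.
Mmp13: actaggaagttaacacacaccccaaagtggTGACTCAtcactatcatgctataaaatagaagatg
Mmp12: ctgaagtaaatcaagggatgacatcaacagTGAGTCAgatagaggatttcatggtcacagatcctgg
Mmp3: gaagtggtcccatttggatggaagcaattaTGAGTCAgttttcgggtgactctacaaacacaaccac
Mmp10: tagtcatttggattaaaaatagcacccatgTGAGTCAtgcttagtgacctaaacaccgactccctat
Mmp1a: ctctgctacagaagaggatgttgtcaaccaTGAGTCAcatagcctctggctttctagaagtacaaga
Mmp1b: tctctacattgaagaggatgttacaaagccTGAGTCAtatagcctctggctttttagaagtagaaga
Mmp7: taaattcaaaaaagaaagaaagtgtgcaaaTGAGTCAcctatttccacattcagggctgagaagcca
The stretches lie at chr9:7272449-7272513 (Mmp13), chr9:7347300-7347366 (Mmp12), chr9:7445746-7445812 (Mmp3), chr9:7502249-7502315 (Mmp10), chr9:7464038-7464104 (Mmp1a) and chr9:7691997-7692063 (Mmp7) on the plus strand and at chr9:7388083-7388149 (Mmp1b) on the minus strand. The first base of the match lies 35, 44, 46 and 63 bases before the start of Mmp13, Mmp12, Mmp3 and Mmp10. A match describes the letters only.

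The neighbors in this cluster differed in direction and in level. Mmp12 (macrophage elastase) had 4.93 and 5.71 CPM in normal 1 and 2 and 45.9, 87.2, 45.5 and 9.63 CPM in tumors 3 to 6, 8.85-fold higher (log2 fold change 3.15 ± 0.84, adjusted p = 0.0155). Every tumor exceeded both normal libraries, but the tumors themselves differed 9.05-fold, with tumor 4 highest and tumor 6 lowest. It missed the threshold by limma voom (2.75, adjusted p = 0.0535) and without normal 1 (3.03, adjusted p = 0.0953) or normal 2 (3.24, adjusted p = 0.0800). Mmp13 (collagenase 3), which cuts fibrillar collagen, had 1.44 and 0.755 CPM in normal 1 and 2 and 8.15, 6.75, 8.70 and 2.33 CPM in tumors 3 to 6 (log2 fold change 2.56 ± 0.66, adjusted p = 0.0132), again lowest in tumor 6, and did not pass without normal 2 (2.15, adjusted p = 0.0957). Mmp3, on the other side of Mmp1b, is the member that fell. Mmp12 and Mmp1b share 157 exon bases on opposite strands.

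The remaining genes of the cluster were low. Mmp10 (stromelysin 2) had 0 counts in both normal libraries and 7, 36, 6 and 3 counts in tumors 3 to 6. With the normal group set to a floor of 3 counts in all, it was at least 12.7-fold higher, or 4.84-fold without tumor 4, 6.14-fold without normal 1 and 6.52-fold without normal 2; such floors cover counting error only. Mmp8, the neutrophil collagenase, had 4.52 and 3.20 CPM in normal 1 and 2 and 0.835, 1.69, 0.886 and 0.0299 CPM in tumors 3 to 6 and did not pass (adjusted p = 0.11), whereas without tumor 6 it was called lower at -1.69 (adjusted p = 0.0199) and with limma voom at -3.07 (adjusted p = 0.0369). Mmp27 ran from 0.374 to 1.21 CPM in tumors, above the 0.244 and 0.270 CPM of normal lung, and passed only without tumor 6 (1.84, adjusted p = 0.0288). Mmp1a, Mmp1b and Mmp7 had at most 4 counts in any library, and Mmp20, an enzyme of tooth enamel, had 0 in all.

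Macrophage markers stood beside Mmp12 as follows. Of 11 markers tested 6 (54.55%) were lower and 2 (18.18%) higher, against 32.6% and 31.3% of all genes tested. Their sums were 1014 and 906 CPM in normal lung and 282, 313, 197 and 157 in tumors 3 to 6. From highest to lowest, these sums ranked the tumors 4, 3, 5 and 6, the same order as for Mmp12. The order differed between markers. Siglecf, Itgax, C1qb, Chil3, Cd68, C1qa and Marco were lowest in tumor 6, as Mmp12 was. Csf1r and Adgre1 were lowest in tumor 4, at 13.9 and 7.03 CPM, and Mrc1 and Fabp4 in tumor 5. Chil3 and Cd68 were highest in tumor 4, at 112 and 23.2 CPM. No marker was at 0 in all tumors. Whether Mmp12 came from macrophages was not tested.

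**Figure D4:**
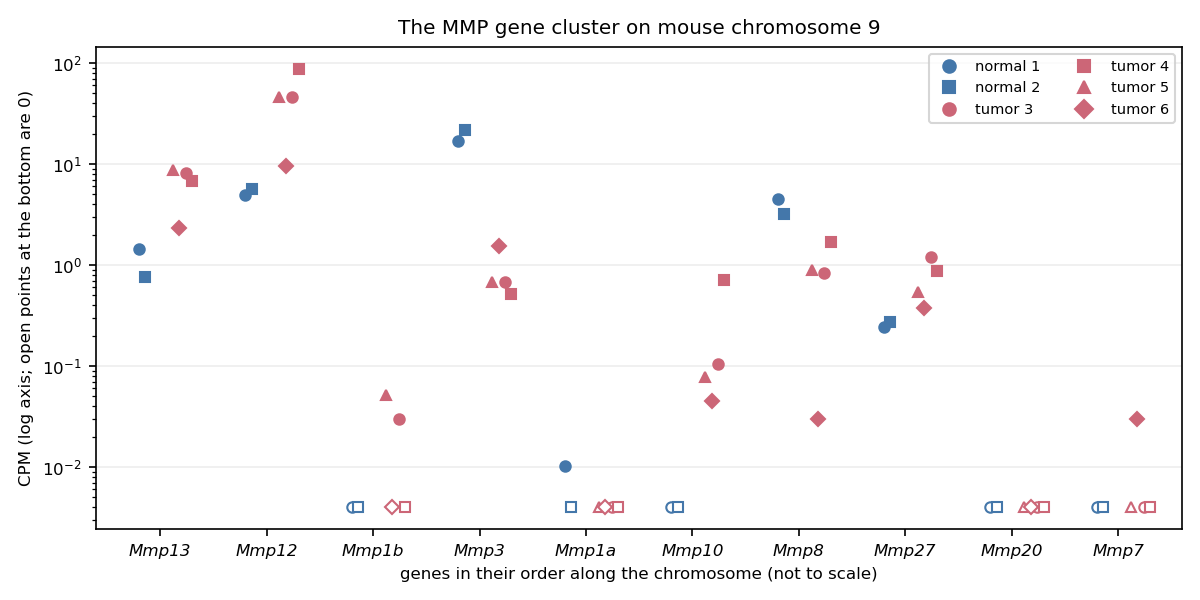
CPM on a log axis for the 10 MMP genes of the chromosome 9 cluster in their order along the chromosome, normal lung in blue and tumors in red, with open points at the bottom for libraries with 0 counts. Mmp13 and Mmp12 have all tumors above normal lung and Mmp3 all tumors below, and tumor 6 is the lowest tumor for Mmp13, Mmp12, Mmp8 and Mmp27.

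The somatic ADAMs with a catalytic site were mostly lower. Of these 9 genes 7 (77.8%) fell, against 32.6% of all genes tested, and Adam8 and Adam12 did not pass. The median log2 fold change of the 9 was -1.92. Adam9, a broadly expressed sheddase, had 238 and 216 CPM in normal 1 and 2 and 64.7, 56.5, 58.4 and 59.3 CPM in tumors 3 to 6, 3.79-fold lower (log2 fold change -1.92 ± 0.13, adjusted p = 7.13e-05). Adam17, which releases TNF and ligands of the EGF receptor, had 112 and 98.7 CPM in normal 1 and 2 and 42.4, 50.0, 46.7 and 45.5 CPM in tumors 3 to 6, 2.29-fold lower (log2 fold change -1.19 ± 0.14, adjusted p = 0.000482). The 4 tumors were within a factor of 1.15 for Adam9 and 1.18 for Adam17, closer together than for most of the genes described. Adam17 shares 311 exon bases with Iah1 on the other strand (GRCm38), which was also lower (-1.37).

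Adam10, the protease that cleaves ligand-bound Notch receptors, differed least of the 7 that fell. It had 179 and 163 CPM in normal 1 and 2 and 128, 130, 133 and 97.6 CPM in tumors 3 to 6, with every tumor below normal lung and tumor 6 the lowest. The 1.40-fold difference passed narrowly (log2 fold change -0.48 ± 0.17, adjusted p = 0.0437). This call was lost in 11 of the 14 alternatives, among them RLE scaling (-0.42, adjusted p = 0.0815), upper quartile scaling (-0.36, adjusted p = 0.110) and DESeq2 (-0.42, adjusted p = 0.0841), and without normal 1 (-0.42), normal 2 (-0.57), tumor 3 (-0.50), tumor 5 (-0.52) or tumor 6 (-0.30).

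Larger decreases were found in Adam19, a sheddase of neuregulin, which had 77.6 and 56.1 CPM in normal 1 and 2 and 6.45, 5.22, 8.34 and 4.77 CPM in tumors 3 to 6 (log2 fold change -3.43 ± 0.27, adjusted p = 0.000126), and in Adam28, at 11.7-fold lower with tumor levels from 0.339 to 1.505 CPM against 10.3 and 10.6 (adjusted p = 0.00382). Adam15 and Adam33 were 4.88-fold and 4.08-fold lower (adjusted p = 0.0003 and 0.00598), and the Adam33 call was lost without normal 2 (-1.78, adjusted p = 0.0608). Adam8, known from leukocytes, ran from 6.19 to 12.3 CPM in tumors and overlapped normal lung at 7.67 and 12.8. Adam12 had 2.88 and 2.48 CPM in normal 1 and 2 and 6.07, 1.57, 4.56 and 7.69 CPM in tumors 3 to 6. It rose without tumor 4 (1.19, adjusted p = 0.0236) and did not pass with it (0.89, adjusted p = 0.243).

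Most listed genes of Adam10 and Adam17 maturation were lower too. Of 12 tested genes of this list, 10 (83.3%) were lower and none higher, against 32.6% and 31.3% of all genes tested, with a median of -1.91. The 2 not past the threshold were Tspan33 and Tspan5. Tspan5 had a mean of 40.0 CPM in normal lung and 39.0 in tumors (log2 fold change -0.04 ± 0.31, adjusted p = 0.925). Rhbdf2 (iRhom2), the escort of Adam17, was 8.26-fold lower at 4.38 ± 0.852 CPM in tumors (mean ± SD, n = 4) against 36.2 ± 0.704 in normal lung (n = 2) (adjusted p = 0.000108). Pcsk5, a proprotein convertase, was 14.2-fold lower (adjusted p = 0.000296) and Tspan17, a tetraspanin partner of Adam10, 3.81-fold lower (adjusted p = 0.000518). All 10 lower genes had every tumor below both normal libraries, as had 39.8% of all genes tested.

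Of the 3 ADAMs of the nervous system that lack a catalytic site, 1 rose, 1 fell and 1 did not pass. Adam22, a synaptic receptor of the secreted protein LGI1, had 32.4 and 28.9 CPM in normal 1 and 2 and 107, 45.7, 131 and 106 CPM in tumors 3 to 6, 3.18-fold higher (log2 fold change 1.67 ± 0.42, adjusted p = 0.012). Every tumor exceeded normal lung and tumor 4 was the lowest, and the call was lost without normal 1 (1.74, adjusted p = 0.0663) or normal 2 (1.57, adjusted p = 0.0808). Adam23, a related LGI1 receptor, had 10.1 and 10.9 CPM in normal 1 and 2 and 3.17, 1.49, 3.98 and 4.74 CPM in tumors 3 to 6 and fell (log2 fold change -1.64 ± 0.45, adjusted p = 0.0168), not past the threshold without normal 1 (-1.71, adjusted p = 0.0719) or normal 2 (-1.60, adjusted p = 0.0831). Adam11 had 0.833 and 1.11 CPM in normal 1 and 2 and 4.99, 0.314, 2.27 and 4.16 CPM in tumors 3 to 6, a 15.9-fold range among tumors, and did not pass (log2 fold change 1.59 ± 0.99, adjusted p = 0.197). Without tumor 4 it rose by 1.97 (adjusted p = 0.0130). Tumor 4 was the lowest tumor for all 3 genes.

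All 4 LGI ligands of these receptors changed. Lgi1 had 0.0609 and 0 CPM in normal 1 and 2 and 14.2, 3.51, 16.7 and 0.972 CPM in tumors 3 to 6 (log2 fold change 8.09 ± 1.87, adjusted p = 0.0087). Tumor 5 was the highest and tumor 6 the lowest, and limma voom gave 8.18 with an adjusted p of 0.0522, not past the threshold. Its normal counts were all from normal 1, so a fold size without that library is not given, and without normal 2 the log2 fold change was 7.13. Lgi2 rose 3.82-fold (log2 fold change 1.94 ± 0.24, adjusted p = 0.000631), whereas Lgi3, abundant in normal lung, had 248 and 206 CPM in normal 1 and 2 and 17.1, 6.64, 13.9 and 43.6 CPM in tumors 3 to 6 (log2 fold change -3.48 ± 0.65, adjusted p = 0.00355). Lgi4 was 11.9-fold lower (adjusted p = 0.0113). Without tumor 6, Lgi3 and Lgi4 were at -4.08 and -4.44.

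The other 18 ADAMs are known mostly from testis and sperm and were low in all libraries. Of the 8 that were tested, 1 (12.5%) rose and 2 (25.0%) fell, against 31.3% and 32.6% of all genes tested. Adam21 had 0.0813 and 0.140 CPM in normal 1 and 2 and 1.15, 0.452, 0.977 and 0.808 CPM in tumors 3 to 6 (log2 fold change 2.92 ± 0.63, adjusted p = 0.00641), a call lost without normal 1 (2.57, adjusted p = 0.0738). Adam5 was at most 0.164 CPM in tumors against 0.945 and 1.07 CPM in normal lung (log2 fold change -3.58 ± 0.70, adjusted p = 0.00437). Adam3 had 179 and 232 counts in normal lung and 23, 17, 11 and 0 in tumors 3 to 6 (adjusted p = 0.0308), a log2 fold change of -3.40 or -4.35 by limma voom, and missed the threshold without normal 1 (-3.62), normal 2 (-3.16) or tumor 5 (-3.25). Adam4, which lies inside Cox16 on the same strand, passed only without tumor 4 (1.43, adjusted p = 0.0195), and Adam1a shares exon sequence with Mapkapk5 on the same strand and Tmem116 on the other, so its counts are uncertain.

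All 19 ADAMTS genes were tested. Of these 9 (47.4%) fell, 5 (26.3%) rose and 5 did not pass. Among all genes tested 32.6% were lower and 31.3% higher. The median log2 fold change of the ADAMTS genes was -1.11, also with Adamts16 (below) set to its lower bound. Among the 7 ADAMTS genes that cleave proteoglycans such as aggrecan and versican, 4 (57.1%) fell and 2 (28.6%) rose. Adamts1 had 175 and 143 CPM in normal 1 and 2 and 18.8, 10.7, 24.0 and 14.3 CPM in tumors 3 to 6, 9.37-fold lower (log2 fold change -3.23 ± 0.31, adjusted p = 0.000257). Adamts15 had 60.7 and 70.5 CPM in normal 1 and 2 and 3.85, 2.06, 2.49 and 1.496 CPM in tumors 3 to 6, 26.5-fold lower (log2 fold change -4.73 ± 0.37, adjusted p = 0.00012). Adamts8 and Adamts9 were 21.9-fold and 12.5-fold lower, at adjusted p = 0.000119 and 8.54e-05. Tumors were below both normal libraries in each of these 4 genes.

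Adamts4 and Adamts20 of the same group rose. Adamts4 (aggrecanase 1) had 0.813 and 0.669 CPM in normal 1 and 2 and 3.77, 5.34, 4.81 and 5.22 CPM in tumors 3 to 6, 6.45-fold higher (log2 fold change 2.69 ± 0.36, adjusted p = 0.000919). Adamts20, known from the coat color defect of belted mice, had 1.62 and 3.58 CPM in normal 1 and 2 and 16.8, 14.8, 19.6 and 31.5 CPM in tumors 3 to 6, 7.94-fold higher (log2 fold change 2.99 ± 0.51, adjusted p = 0.00235), or 3.65 on the log2 scale without normal 2. Adamts5 (aggrecanase 2) had 27.2 and 31.1 CPM in normal 1 and 2 and 16.7, 3.48, 19.5 and 6.60 CPM in tumors 3 to 6 and did not pass (adjusted p = 0.109), though limma voom called it lower (-1.57, adjusted p = 0.0349).

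Substrates of these proteases went both ways. Of 26 listed genes of shed or cleaved proteins 14 (53.8%) were lower, 6 (23.1%) higher and 6 not past the threshold (median -2.27). Among all genes tested 32.6% were lower and 31.3% higher. The 3 that rose at the smallest p were Cdh2 (N-cadherin) at 9.67-fold, the ephrin receptor Ephb2 at 13.0-fold and the neural adhesion gene Ncam1 at 30.6-fold (adjusted p = 0.000204, 0.000329 and 0.000671). Cdh5, the endothelial cadherin, Notch1 and App fell 47.7-fold, 24.7-fold and 7.78-fold (adjusted p = 3.16e-05, 3.31e-05 and 7.92e-05). Versican, the Vcan product and a substrate of several ADAMTS enzymes, had 20.1 and 24.2 CPM in normal 1 and 2 and 61.0, 39.8, 96.3 and 186 CPM in tumors 3 to 6 (log2 fold change 2.11 ± 0.64, adjusted p = 0.0248) and missed the threshold without normal 1 (1.97, adjusted p = 0.133) or normal 2 (2.23, adjusted p = 0.0996). Vcan was chosen after its values were seen.

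The 3 procollagen N-propeptidases, which trim fibrillar collagen precursors, all fell. Adamts2 had 44.0 and 48.8 CPM in normal 1 and 2 and 6.47, 14.1, 10.6 and 11.5 CPM in tumors 3 to 6 (log2 fold change -2.12 ± 0.30, adjusted p = 0.0011). Adamts3 was 8.47-fold lower (adjusted p = 0.00318) and Adamts14 3.04-fold lower (adjusted p = 0.0199), where the call was lost without normal 1 (-1.75) or normal 2 (-1.48). Pcolce2 and Pcolce, enhancers of the C-propeptidase that trims the other end, were 137-fold and 16.4-fold lower (adjusted p = 2.46e-05 and 2.99e-05).

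The other ADAMTS genes were split. Adamts18 had 0.0508 and 0.0755 CPM in normal 1 and 2 and 4.05, 2.18, 3.78 and 0.778 CPM in tumors 3 to 6 (log2 fold change 5.38 ± 0.92, adjusted p = 0.0025). It was close to absent from normal lung, with 5 and 7 counts, and differed 5.21-fold among tumors. Adamts16 had 0 counts in both normal libraries and 6, 2, 20 and 73 in tumors 3 to 6, at least 24.6-fold higher with the same floor (adjusted p = 0.033). That bound was 9.16-fold without tumor 6, 11.9-fold without normal 1 and 12.7-fold without normal 2, and the call was lost without normal 1 (adjusted p = 0.106) or normal 2 (adjusted p = 0.0996). Adamts12 had 3.05 and 3.47 CPM in normal 1 and 2 and 4.92, 7.05, 10.2 and 13.0 CPM in tumors 3 to 6 (log2 fold change 1.43 ± 0.45, adjusted p = 0.0292) and missed the threshold without normal 1 (1.32), normal 2 (1.51) or tumor 5 (1.36).

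Adamts10, which binds fibrillin microfibrils, had 78.0 and 96.2 CPM in normal 1 and 2 and 23.7, 7.34, 27.4 and 29.5 CPM in tumors 3 to 6 and fell by 1.99 on the log2 scale (adjusted p = 0.011), not past the threshold without normal 2 (-1.84, adjusted p = 0.0593). Adamts7 fell by 1.11 on the log2 scale (adjusted p = 0.0304) and lost its call without normal 1 (-1.32), normal 2 (-0.90) or tumor 3 (adjusted p = 0.0593). It shares 122 exon bases with Tbc1d2b on the other strand, which was also lower, from 109.7 to 18.0 CPM, and the part of those reads in its count was not tested. Adamts13, the von Willebrand factor protease, was at most 0.990 CPM and did not pass, and neither did Adamts6, Adamts17 and Adamts19. Adamts6 was lowest in tumor 5, at 3.20 CPM, and highest in tumor 6, at 23.4 CPM. Adamts19 was called higher with DESeq2 (1.89), limma voom (2.08), without normal 2 (3.21) and without tumor 4 (2.08).

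All 5 ADAMTS-like genes fell, with a median of -3.98, and in each the 4 tumors lay below both normal libraries. Among all genes tested these shares were 32.6% and 39.8%. Adamtsl2, which binds fibrillin and is linked to TGF-beta signaling, had 52.5 and 49.7 CPM in normal 1 and 2 and 1.80, 1.61, 2.81 and 1.75 CPM in tumors 3 to 6, 25.6-fold lower (log2 fold change -4.68 ± 0.28, adjusted p = 4.93e-05). Adamtsl4, another fibrillin partner, was 11.7-fold lower at 4.10 ± 0.787 CPM in tumors (mean ± SD, n = 4) against 48.0 ± 5.39 in normal lung (n = 2), and Adamtsl1 was 11.3-fold lower at 2.06 ± 0.148 CPM in tumors (mean ± SD, n = 4) against 23.2 ± 3.92 in normal lung (n = 2) (adjusted p = 6.75e-05 and 6.69e-05). Adamtsl5 and Adamtsl3 were 21.1-fold and 15.7-fold lower (adjusted p = 0.00036 and 0.000834). The 5 genes kept their calls in all 14 alternatives.

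Other regulators of matrix proteolysis were described from lists beside these families. Of 14 inhibitors and regulators 10 (71.4%) were lower and 2 (14.3%) higher (median -2.26), against 32.6% and 31.3% of all genes tested. The 2 that rose were testicans, proteoglycans of the nervous system that regulate MMPs and cathepsins. Spock2, a more abundant testican, was among the 10 lower genes. It had 327 and 300 CPM in normal 1 and 2 and 170, 193, 212.5 and 240 CPM in tumors 3 to 6. Its log2 fold change was -0.62 ± 0.18 (adjusted p = 0.0194), a call lost without normal 1 (-0.57) or normal 2 (-0.70). Spock3 had 0.345 and 0.604 CPM in normal 1 and 2 and 14.9, 14.0, 20.7 and 7.21 CPM in tumors 3 to 6 (log2 fold change 4.90 ± 0.59, adjusted p = 0.000586) and Spock1 0.0203 and 0.432 CPM in normal 1 and 2 and 14.2, 34.8, 29.98 and 6.03 CPM in tumors 3 to 6 (log2 fold change 6.55 ± 1.41, adjusted p = 0.00652), the latter at 5.60 without normal 1 and 9.90 without normal 2. The hyaluronan receptor Cd44 was 11.1-fold lower (adjusted p = 5.01e-05). Reck, a membrane inhibitor of MMPs chosen after its values were seen, had 87.5 and 84.2 CPM in normal 1 and 2 and 16.1, 6.28, 12.4 and 17.2 CPM in tumors 3 to 6 (log2 fold change -2.73 ± 0.37, adjusted p = 0.000929).

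The plasminogen system, a serine protease route to the same matrix, was mixed. Of its 10 listed genes 2 were higher, 3 lower and 5 not past the threshold (median -0.62). The shares of all genes tested were 32.6% lower and 31.3% higher, so the lower share of this list was near that of all genes. The activator Plat and the urokinase receptor Plaur were 7.34-fold and 6.52-fold lower (adjusted p = 0.000289 and 0.00032), and plasminogen itself, Plg, was at most 0.427 CPM in any library and fell by 2.95 on the log2 scale, a call lost without normal 1 (-2.77). Serpini1 (neuroserpin), the neuronal inhibitor of Plat, had 1.65 and 2.12 CPM in normal 1 and 2 and 84.7, 72.5, 57.8 and 31.9 CPM in tumors 3 to 6, 32.8-fold higher (log2 fold change 5.04 ± 0.50, adjusted p = 0.000276), and the plasminogen receptor gene Plgrkt was 2.69-fold higher (adjusted p = 0.00271).

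Among 21 other extracellular and membrane proteases tested, 9 (42.9%) fell and 2 (9.52%) rose (median -1.83), against 32.6% and 31.3% of all genes tested. Dpp4, Ece1 and Anpep, peptidases of the cell surface, were 33.8-fold, 13.9-fold and 6.37-fold lower (adjusted p = 2.46e-05, 0.000163 and 0.000233). Ece2, an endothelin-converting enzyme of neural tissue, had 3.82 and 5.10 CPM in normal 1 and 2 and 44.8, 43.9, 44.3 and 58.5 CPM in tumors 3 to 6, 10.7-fold higher (log2 fold change 3.42 ± 0.25, adjusted p = 9.24e-05). Fap, a fibroblast activation marker, rose 6.66-fold, at 4.01 ± 1.12 CPM in tumors (mean ± SD, n = 4) against 0.601 ± 0.188 in normal lung (n = 2) (adjusted p = 0.00256).

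Among all 81 genes, the highest levels per length in normal lung were those of Timp3 and Timp2, at 166 and 106 CPM per kb of exon, followed by Adam9 at 55.1, Adam10 at 37.3 and Adamts1 at 31.0. In the tumors the order was Adam10 at 26.7 CPM per kb, Adam9 at 14.5, Mmp12 at 10.8, Adam17 at 9.81 and Mmp24 at 9.64. Timp2, Adam22, Timp1 and Timp3 came next, at 8.18, 8.16, 7.77 and 7.12. From Adam9 on, neighbors in the tumor order differ by less than the spread between tumors.

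The tumors differed from each other, which 1 library per tumor does not allow to test. Tumor 4 was the lowest tumor in 27 of the 66 tested genes, against 12 to 14 for each of the others, and tumor 6 was the highest in 22. Tumor 4 was the lowest for Mmp2, Mmp9, Adam11, Adam22, Adam23 and Adamts10, and the highest for Mmp12, Mmp14, Timp2 and Timp3. Tumor 6 was the highest for Mmp16, Adamts6, Adamts16 and Adamts20 and the lowest for Mmp12, Mmp13 and Mmp8.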

How the data were processed

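RNA of flash-frozen tissue went into poly(A)-selected libraries (NEBNext Ultra II), per the labels' protocols. The deposited values are raw read counts per gene symbol, which the authors made in TPMCalculator, per the labels. The submitters' processing notes list STAR 2.5.4a, Trimmomatic 0.36, Trim Galore, R 3.5.1, DESeq2 1.22.2 and the build mm9, with no role or order. Annotation, strand setting and whether mates were counted apart were not given in the sources used here, and 61.2% of counts from 1 to 10 were even. Reads of overlapping or near-identical genes cannot be told apart, and 1 overlap is not reported here.

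The test was the quasi-likelihood test of edgeR 4.0.16 (R 4.3.3), TMM scaling, filterByExpr (minimum count 10, minimum total 15) and tissue as the only term, on 2 normal and 4 tumor libraries of 1 batch. Benjamini-Hochberg adjustment ran over 18027 genes, with a threshold of 0.05. CPM use TMM-scaled library sizes, and standard errors come from the fold change and its F statistic. Lengths are the union of exons in GENCODE vM21 (GRCm38), which matched all 81 genes and may differ from the authors' gene models. Replicate pairs differed by more than sampling noise. The test was also checked on simulated counts in which a small share of genes changed, equally in both directions. That check did not cover scaling where most genes are called, which is the case in these data. Alternatives were RLE, upper quartile and no scaling, no filter, a stricter filter (1 CPM throughout a group), limma 3.58.1 voom, DESeq2 1.42.0, and each library left out. Removal of Rn45s, Rpph1 and Rmrp was added after the data were seen. These RNAs took 0.238% and 0.55% of counts in normal 1 and 2. In tumors 3 to 6 they took 13.9%, 11.8%, 5.46% and 9.32%, so their share differed between the groups. The source of that difference was not tested. Full statistics are given for the TIMPs, up to 6 genes per family and direction by smallest p and 9 genes set by name, and for up to 3 genes per direction of each other list. Members and lists were chosen with earlier results of these data known.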

Additional observations from a re-analysis of the deposited data

Results flagged for a closer look

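In 4 of the 66 tested genes, 1 tumor lay apart from the other 3 by more than Dixon's 95% criterion allows for 4 values. Chance gives such a gap in about 1 in 20 groups. Mmp16 had its highest tumor at 55.0 CPM in tumor 6, against 13.6 to 18.6 CPM. Mmp17 had its highest at 6.97 CPM in tumor 5, against 1.15 to 2.03. Adam10 had its lowest at 97.6 CPM in tumor 6, against 128 to 133, and its call was lost without that tumor. Adamtsl2 had its highest at 2.81 CPM in tumor 5, against 1.61 to 1.80, still far below the 52.5 and 49.7 CPM of normal lung.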

How the results depend on the processing

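No call of the 66 genes reversed under any alternative. Of the 11 genes that rose 5 kept their call throughout, and of the 36 that fell 27 did. With each library left out in turn, the genes higher in tumors ranged from 6 (without normal 1) to 15 (without tumor 4) and those lower from 27 (without normal 2) to 36, against 3373 to 5912 higher and 4278 to 6167 lower of all genes; with 1 normal library left, its spread was taken from the tumors. By family, the number higher ranged from 2 to 5 for MMPs, 0 to 5 for ADAMs and 3 to 6 for ADAMTS, and the number lower from 8 to 10 for MMPs, 2 to 3 for TIMPs, 6 to 10 for ADAMs and 6 to 9 for ADAMTS. With the stricter filter 1 ADAM and 3 ADAMTS genes were higher, since it tests fewer genes, and with DESeq2 1 TIMP was. Upper quartile scaling moved the median log2 fold change of all genes up by 0.12. No paired analysis was possible because the groups share no replicate numbers. P-values measure the spread between these mice, and a normal group of 2 limits them. The filter for low counts left 15 genes untested.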

Other observations

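Tumor 4 differed from the other tumors in a pair of epithelial serine proteases and a substrate, all 3 chosen after their values were seen. Tmprss4 had 29.2 and 27.0 CPM in normal 1 and 2 and 1.39, 65.5, 1.61 and 1.62 CPM in tumors 3 to 6, and St14 (matriptase) had 50.2 and 47.8 CPM in normal 1 and 2 and 3.56, 62.5, 2.54 and 1.62 CPM in tumors 3 to 6. Cdh1, the epithelial cadherin that Adam10 can shed, had 445 and 376 CPM in normal 1 and 2 and 13.0, 213, 12.7 and 5.58 CPM in tumors 3 to 6. None of the 3 passed the test of tumor against normal lung (adjusted p = 0.732, 0.39 and 0.119), and in each the other 3 tumors lay far below both tumor 4 and normal lung.

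Genes known from cartilage stood beside the aggrecanase Adamts4. Of 4 such genes tested 3 (75.0%) were higher and none lower, against 31.3% and 32.6% of all genes tested. Levels were low, and the summed CPM was 0.295 and 0.529 in normal lung and 3.55, 0.766, 4.06 and 2.45 in tumors 3 to 6. Col9a1 had 0 counts in both normal libraries and 7 to 29 in tumors, and Col2a1 1 and 5 against 8 to 22. Sox9 overlapped normal lung and did not pass (adjusted p = 0.332). Acan, the aggrecan gene, had 0 and 4 counts in normal lung and 2.76, 0.177, 1.94 and 0.419 CPM in tumors 3 to 6 (adjusted p = 0.0237, or 0.111 without normal 1).

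A pair of E-box motifs was searched in the same promoter windows. CACGTG, bound by Myc, was in 4 of 51 protease and inhibitor promoters (7.84%) against 6.86% of all genes, and in none of the 8 genes that rose. CAGCTG, bound by proneural factors, was in 11 of 51 (21.6%) against 14.7% of all genes, in 1 of 8 that rose and 8 of 23 that fell. Both read the same on either strand, and a match describes the letters only.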
